A study of Homo sapiens with 8 samples.

Results

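The genes described here carry glucose from the cell surface to lactate, to the mitochondrial pyruvate dehydrogenase complex, or into the pentose phosphate pathway. There are 34 of them among the 19414 genes of the deposited tables, chosen by gene symbol. They were taken in 6 steps: glucose uptake and hexokinases (4 genes), phosphofructokinases and their bifunctional regulators (6), aldolase to pyruvate kinase (10), lactate dehydrogenase and lactate transport (4), pyruvate dehydrogenase and its kinases (7), and pentose phosphate enzymes (3). A filter on low values let 29 of the 34 be tested. The other 5, PFKFB2, ALDOC, SLC16A3, PDK1 and PDK4, carried too few reads.

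Glycolysis breaks glucose down to pyruvate in the cytosol and gains ATP and NADH on the way. Pyruvate is then either reduced to lactate and exported, or oxidised in mitochondria by the pyruvate dehydrogenase complex, which the PDK kinases switch off. The pentose phosphate pathway branches off after the hexokinase step and supplies NADPH and ribose for nucleotides. MYC, a transcription factor of the basic helix-loop-helix leucine zipper family, binds E-boxes with its partner MAX, and genes of glucose and lactate metabolism, LDHA among them, are textbook targets of it.

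Total RNA was sequenced from U2OS, the osteosarcoma cell line that all groups share, as 2 libraries per group. The groups carry both Zab and overexpressed MYC (Zab+MYC), overexpressed MYC (MYC), Zab alone (Zab), or neither (WT). Zab is written Zαβ in the series' design, a name in general use for the Z-nucleic-acid-binding domains of the editing enzyme ADAR1, and the labels describe neither construct further. The series is titled for interactions of MYC with FACT, a histone chaperone, and for Z-DNA, and its design asks what MYC does to transcription with and without Zab. No label says how either factor was introduced, whether a line was a single clone, or whether paired libraries stem from separate cultures.

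Exon reads, called tags here, numbered from 686992 to 1326166 per library, and levels are given as tags scaled to a common exon total (CPM, the usual unit) with TMM scaling. The MYC transcript stood at 706 ± 1.27 CPM (SD, n = 2) in the Zab+MYC libraries, 1263 ± 37.1 with MYC, 212 ± 25.1 with Zab and 83.7 ± 15.8 in WT, and the ADAR transcript at 1043 ± 34.7, 239 ± 11.8, 6100 ± 138 and 267 ± 3.75 CPM in the same groups. Zab+MYC cells thus held less MYC transcript than MYC cells, and less ADAR transcript than Zab cells, and the part of either in the results below was not tested. The share of tags in exons also moved with the groups, at 69.1% in the Zab+MYC libraries, 76.0% with MYC, 60.8% with Zab and 70.9% in WT. Of 8 bone and mesenchymal markers, VIM, SPARC and COL1A1 were abundant and COL1A2 and BGLAP stayed under 5 CPM in all libraries, and the list summed to 7632 to 7755 CPM in Zab+MYC, 5315 to 5470 in MYC, 8499 to 8907 in Zab and 10100 to 10300 in WT. Of 4 epithelial markers, KRT8 ranged from 271 to 1015 CPM and KRT18 from 597 to 1395 CPM. EPCAM ranged only from 0.612 to 5.05 CPM and CDH1 from 0 to 1.42 CPM, so nearly all of the list's sum was keratin. That list summed to 2152 to 2172 CPM in Zab+MYC, 1085 to 1138 in MYC, 1529 to 1697 in Zab and 1592 to 1666 in WT. All markers of blood, endothelium, fat and liver stayed under 5 CPM.

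The 2 libraries of a group differed by about sampling noise, if a tag is 2 of the steps in which the deposited values run. Over genes with at least 20 tags in a pair, chi-square per degree of freedom was 0.997 in Zab+MYC, 1 in both MYC and Zab, and 1.03 in WT. Genes with at least 1500 tags exceeded that noise in all 4 groups, at 1.58 in the Zab+MYC libraries, 1.19 with MYC, 1.32 with Zab and 1.31 in WT, so the libraries were kept as 2. The p-values below rest on that spread alone, which may be technical, and small ones come easily to abundant genes, so that the size of a difference matters more than its p. Members were more abundant than most genes, with a median of 86.3 CPM against 39.8 CPM over all 9673 genes tested. These are bulk values, in which fewer cells of a type and less RNA per cell cannot be told apart.

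MYC and related factors read the E-box CACGTG, so the starts of the members were searched for it. RefSeq promoter windows (GRCh38.p14, from 250 bases before to 50 bases after an annotated start) were matched by symbol for 32 of the 34 members. CACGTG, which reads the same on both strands, lay in the windows of 8 of these 32 genes (25.0%), against 8.77% of 27305 genes in the whole table; counted by window, it lay in 8 of 61 (13.1%), against 7.26% of 35116. The 8 genes are HK2, PFKFB3, ALDOA, ALDOC, GAPDH, LDHA, PDK2 and PDHB. The shorter ACGTG or GCGTG, searched on both strands and overlapping CACGTG, lay in the windows of 87.5% of the members with a window and of 52.4% of all genes. Counted by window, the shares were 62.3% and 48.4%. Members had more windows per gene than the whole table, which raises their share by gene for either motif. The whole table also holds more genes than the 19414 of the deposited data. It was not matched to the members by expression or type of gene. A match is a description of these letters and no evidence of binding, and genes with no CACGTG here include several whose differences with MYC were large, such as DLAT, ENO2, ENO3 and PFKL. The stretches of 5 genes are shown because they differ in what their gene did with MYC: HK2, PFKFB3 and LDHA were higher in MYC than in WT, GAPDH and PDK2 lower. Each is given 5′ to 3′ on the gene's strand, with the E-box in capitals, and all lie on the plus strand before an annotated start. The HK2 window holds the motif at 194 and 149 bases before its start (chr2:74834936-74835021 and chr2:74834981-74835066), which is not the more upstream of its annotated starts. The LDHA motif shown lies 87 bases before the start (chr11:18394464-18394493), the PFKFB3 motif 108 bases (chr10:6202812-6202841), the GAPDH motif 81 bases (chr12:6535143-6535228) and the PDK2 motif 129 bases (chr17:50095182-50095267). The LDHA stretch also lies in an exon of another annotated transcript.
HK2, distal: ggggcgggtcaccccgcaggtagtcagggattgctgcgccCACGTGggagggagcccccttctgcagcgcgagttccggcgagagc
HK2, proximal: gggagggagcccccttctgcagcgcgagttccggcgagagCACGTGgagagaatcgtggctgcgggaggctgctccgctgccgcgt
PFKFB3: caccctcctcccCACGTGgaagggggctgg
LDHA: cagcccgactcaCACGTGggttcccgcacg
GAPDH: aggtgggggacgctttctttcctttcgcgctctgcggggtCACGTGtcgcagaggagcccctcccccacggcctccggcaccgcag
PDK2: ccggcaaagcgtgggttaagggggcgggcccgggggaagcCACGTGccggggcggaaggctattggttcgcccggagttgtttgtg

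With overexpressed MYC alone, hexokinase, lactate dehydrogenase and lactate transporter transcripts were higher, and the tissue-restricted enolases, the liver-type phosphofructokinase and 2 of the pyruvate dehydrogenase kinases were lower. Of the 29 members tested in MYC against WT, 24 were called (limma on log2(CPM + 2), Benjamini-Hochberg adjusted p under 0.05 over all genes), 15 higher and 9 lower, where 58.2% of all genes were called, 27.8% higher and 30.4% lower. At least 2-fold, 5 members were higher and 6 lower, where 30.6% of all genes passed, 12.3% higher and 18.4% lower. The median log2 difference was 0.19 over the members and -0.04 over all genes. By step, 3 of 4 uptake and hexokinase members and all 3 lactate members tested were higher, while the phosphofructokinase and pyruvate dehydrogenase steps were each split into 2 higher and 2 lower.

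With Zab alone, members that changed were mostly lower, 6 of them between aldolase and pyruvate kinase. In Zab against WT 12 members were called, 3 higher and 9 lower, where 24.4% of all genes were called, 13.1% higher and 11.3% lower. HK2 alone was at least 2-fold higher and PDK2 alone at least 2-fold lower, where 5.93% of all genes passed that size, 2.43% higher and 3.5% lower. The median was -0.19 over the members and 0.00 over all genes. The lower members were TPI1, GAPDH, PGK1, PGAM1, ENO2, PKM, LDHA, PDK2 and TKT, and the higher ones HK2, PFKM and DLAT. On the scale of the deposited values, whose sums were lower in Zab libraries than in WT libraries, 1 member was higher and 24 lower. On that scale 51.9% of all genes were called, 2.6% higher and 49.3% lower.

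Between the groups with Zab, most members that changed were higher in the presence of MYC. In Zab+MYC against Zab 18 members were called, 14 higher and 4 lower, where 26.8% of all genes were called, 14.3% higher and 12.5% lower. SLC16A1 was at least 2-fold higher and ENO3 at least 2-fold lower, where 7.2% of all genes passed that size, 2.52% higher and 4.67% lower. The median was 0.36 over the members and -0.01 over all genes. On the deposited scale 18 members were higher and 2 lower, where 22.3% of all genes were called higher and 8.1% lower.

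Set against MYC cells, Zab+MYC cells had 4 members higher and 9 lower, the lower ones from every step, where 20% of all genes were called, 11.8% higher and 8.14% lower. PFKFB3 was at least 2-fold lower, where 5.28% of all genes passed that size, 4.96% higher and 0.32% lower. The higher ones were SLC2A1, GAPDH, ENO2 and PKM. The lower ones were SLC16A1 and PFKFB3, described below, PFKP by 1.46-fold, LDHB by 1.32-fold, GPI by 1.29-fold, TKT by 1.24-fold, PGK1 by 1.23-fold, and PDHA1 and LDHA. The calls for PDHA1 and LDHA ended with library totals and without MYC replicate 2 or Zab+MYC replicate 2, that for PDHA1 also without the other library of either group, with no filter and with DESeq2, that for TKT without Zab+MYC replicate 1, and that for ENO2 without MYC replicate 1 or Zab+MYC replicate 1, on the deposited scale, with no filter and with DESeq2. The split was 5 higher and 7 lower with library totals in place of TMM factors, and 1 higher and 16 lower on the deposited scale. Of all genes, 13.8% were called higher and 5.89% lower with library totals, and 5.94% and 30.5% on the deposited scale. Set against WT cells, Zab+MYC cells had 11 members higher and 8 lower, where 42.3% of all genes were called, 21.6% higher and 20.6% lower. On the deposited scale 5 members were higher and 12 lower, where 10.5% of all genes were called higher and 40.7% lower. Of the members called in the main fit, 3 were at least 2-fold higher (HK2, SLC16A1 and DLAT) and 5 at least 2-fold lower (PFKFB4, ENO2, ENO3, PDK2 and PDK3), where 16.9% of all genes passed that size, 6.9% higher and 9.97% lower. All 4 uptake and hexokinase members and all 3 lactate members tested were among the higher ones. The calls for SLC2A1, HK1, LDHA and LDHB, and among the other steps PFKP and ALDOA, ended on the deposited scale. Those for SLC2A1 and ALDOA also ended with DESeq2 and without Zab+MYC replicate 1 or WT replicate 1, that for PFKP with DESeq2 and without Zab+MYC replicate 1, that for HK2 without Zab+MYC replicate 2, and that for PDK3 with DESeq2. The TALDO1 call ended with no filter, with the filter of 5 CPM, with DESeq2, and without Zab+MYC replicate 1 or either WT library.

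**Figure D1:**
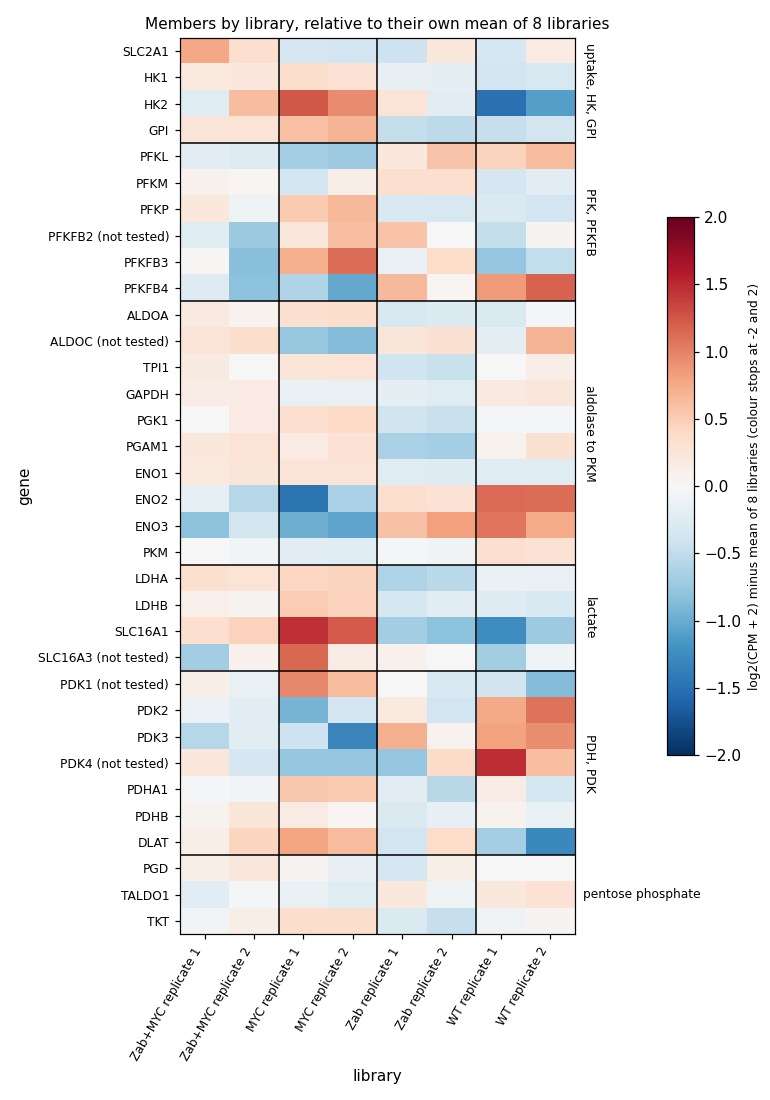
Each row is a member and each column a library. Colour gives log2(CPM + 2) minus the member's own mean of the 8 libraries, and black lines divide the steps and the groups. The MYC libraries are high and the WT libraries low for HK2 and SLC16A1, and the reverse holds for ENO2, ENO3, PFKL and PDK2.

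Glucose uptake and hexokinases. SLC2A1, the glucose transporter of most dividing cells (hg19 chr1:43391046-43424539, minus strand), stood at 105 and 77.3 CPM in the Zab+MYC libraries, 47.6 and 46.4 with MYC, 45.2 and 70.4 with Zab and 47.3 and 68.3 in WT. Both Zab+MYC libraries lay above all others, and MYC overlapped WT. It was 1.88-fold above MYC in Zab+MYC cells (log2 0.91 ± 0.202 SE, adjusted p = 0.000454 by limma) and 1.58-fold higher than in Zab (adjusted p = 0.00998 by limma), while MYC against WT gave a log2 difference of -0.27 (adjusted p = 0.261 by limma). Without Zab+MYC replicate 1 neither call held, and the call against Zab also ended without Zab replicate 1, with no filter and with DESeq2.

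HK2, the inducible hexokinase (chr2:75061254-75120485, plus strand), stood at 13.1 and 25.5 CPM in the Zab+MYC libraries, 40.6 and 32.5 with MYC, 19.4 and 13.5 with Zab and 4.42 and 6.36 in WT. The MYC libraries were highest, the WT libraries lowest, and Zab+MYC overlapped Zab. It was 5.24-fold above WT in MYC cells (log2 2.39 ± 0.347 SE, adjusted p = 1.19e-08 by limma) and 2.48-fold above WT in Zab cells (adjusted p = 0.00267 by limma). In Zab+MYC against Zab the log2 difference was 0.17 (adjusted p = 0.767 by limma). The Zab call ended with DESeq2 and without Zab replicate 1, and the WT libraries held few tags for this gene.

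HK1, the constitutive hexokinase, averaged 368 ± 0.332 CPM in the Zab+MYC libraries, 399 ± 13.3 with MYC, 282 ± 5.40 with Zab and 251 ± 5.38 in WT (SD, n = 2 each). It was higher with MYC in both backgrounds, 1.59-fold in MYC against WT and 1.30-fold in Zab+MYC against Zab (adjusted p = 5.65e-10 and 0.000426 by limma). GPI, the isomerase that follows (chr19:34856101-34893318, plus strand), stood at 583 and 593 CPM in the Zab+MYC libraries, 735 and 786 with MYC, 352 and 340 with Zab and 356 and 379 in WT. No Zab+MYC or MYC library overlapped any Zab or WT library. GPI was 2.06-fold above WT in MYC cells (log2 1.05 ± 0.0727 SE, adjusted p = 3.51e-21 by limma) and 1.70-fold above Zab in Zab+MYC cells (adjusted p = 5.90e-14 by limma).

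Phosphofructokinases and their regulators. The 3 phosphofructokinase genes, which encode the committed step of glycolysis, did not move together. PFKP, the platelet type (chr10:3110162-3178997, plus strand), stood at 220 and 177 CPM in the Zab+MYC libraries, 276 and 303 with MYC, 154 and 152 with Zab and 156 and 146 in WT. The MYC libraries were highest and the Zab+MYC libraries lay between them and the others. It was 1.91-fold above WT in MYC cells (log2 0.93 ± 0.113 SE, adjusted p = 6.15e-11 by limma) and 1.29-fold above Zab in Zab+MYC cells (adjusted p = 0.0114 by limma), a call that ended with DESeq2 and without Zab+MYC replicate 1.

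PFKL, the liver type (chr21:45719936-45747256, plus strand), moved the other way. It stood at 54.5 and 52.5 CPM in the Zab+MYC libraries, 38.8 and 37.7 with MYC, 73.9 and 95.5 with Zab and 87.1 and 99.1 in WT. Both groups with MYC lay below both groups without it. PFKL was 2.36-fold below WT in MYC cells (log2 -1.24 ± 0.186 SE, adjusted p = 3.09e-08 by limma) and 1.55-fold below Zab in Zab+MYC cells (adjusted p = 0.00705 by limma), a call lost with DESeq2 and without Zab replicate 2 or Zab+MYC replicate 2. PFKM, the muscle type, averaged 77.7 ± 1.61 CPM in the Zab+MYC libraries, 69.3 ± 18.1 with MYC, 94.1 ± 0.198 with Zab and 61.4 ± 3.84 in WT (SD, n = 2 each), and only Zab against WT was called (1.52-fold higher, adjusted p = 0.00677 by limma), not on the deposited scale, with DESeq2 or without WT replicate 1.

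The PFKFB genes encode bifunctional enzymes that make and break down a strong allosteric activator of phosphofructokinase. PFKFB3, the isozyme with the strongest bias towards making it (chr10:6186884-6296611, plus strand), stood at 14.6 and 7.09 CPM in the Zab+MYC libraries, 24.8 and 33.3 with MYC, 12.9 and 19.0 with Zab and 7.57 and 9.54 in WT. The MYC libraries were highest, and Zab+MYC overlapped Zab and WT. PFKFB3 was 2.93-fold above WT in MYC cells (log2 1.55 ± 0.360 SE, adjusted p = 0.000166 by limma), and 2.50-fold below MYC in Zab+MYC cells (adjusted p = 0.00487 by limma), where the call ended with DESeq2 and without MYC replicate 2 or Zab+MYC replicate 2. Over the 8 libraries, its kept transcript was 1 of 7.

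PFKFB4 (chr3:48555117-48598562, minus strand) ran opposite to PFKFB3 in MYC against WT. In Zab+MYC against Zab both log2 differences were below 0, -0.89 for PFKFB4 and -0.53 for PFKFB3, the latter not called. PFKFB4 stood at 13.6 and 8.51 CPM in the Zab+MYC libraries, 10.3 and 7.14 with MYC, 27.3 and 17.1 with Zab and 31.5 and 40.3 in WT. The WT libraries were highest, and the groups with MYC lay below both others. PFKFB4 was 3.56-fold below WT in MYC cells (log2 -1.83 ± 0.340 SE, adjusted p = 3.78e-06 by limma) and 1.85-fold below Zab in Zab+MYC cells (adjusted p = 0.0436 by limma), and the call with Zab did not hold under 10 of the alternatives. PFKFB2 was too low to test, at 7 tags in the Zab+MYC libraries, 21 with MYC, 12 with Zab and 9 in WT, summed over the 2 libraries and rounded to whole tags.

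Aldolase to pyruvate kinase. Of the 9 members tested in this step, 4 were higher and 4 lower in MYC against WT, and 6 were higher and 2 lower in Zab+MYC against Zab. Of all genes, 27.8% were called higher and 30.4% lower in MYC against WT, and 14.3% and 12.5% in Zab+MYC against Zab. Most genes of this step have processed pseudogenes that can share reads with them, which leaves their values uncertain to that degree. ALDOA, the main aldolase (chr16:30075818-30083528, plus strand), stood at 451 and 416 CPM in the Zab+MYC libraries, 497 and 511 with MYC, 317 and 329 with Zab and 325 and 392 in WT. It was 1.41-fold above WT in MYC cells (adjusted p = 3.60e-07 by limma) and 1.34-fold above Zab in Zab+MYC cells (adjusted p = 4.20e-05 by limma). TPI1, the triose phosphate isomerase (chr12:6976584-6980112, plus strand), stood at 496 and 437 CPM in the Zab+MYC libraries, 517 and 530 with MYC, 330 and 320 with Zab and 441 and 479 in WT. The Zab libraries alone were low: TPI1 was 1.41-fold below WT in Zab cells (adjusted p = 3.93e-07 by limma) and 1.43-fold above Zab in Zab+MYC cells (adjusted p = 1.64e-07 by limma). In MYC against WT it was 1.14-fold higher (adjusted p = 0.0341 by limma), a call that ended with library totals, on the deposited scale, with DESeq2, and without MYC replicate 2 or WT replicate 1.

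GAPDH, the dehydrogenase that makes NADH in glycolysis and is often used as a loading control (chr12:6643683-6647537, plus strand), stood at 7619 and 7697 CPM in the Zab+MYC libraries, 6196 and 6181 with MYC, 6030 and 5805 with Zab and 7723 and 8028 in WT. Cells with both factors and cells with neither were close to each other and above cells with either factor alone. GAPDH was 1.27-fold below WT in MYC cells (log2 -0.35 ± 0.0242 SE, adjusted p = 3.55e-21 by limma) and 1.33-fold below WT in Zab cells (adjusted p = 4.99e-24 by limma), directions that every scaling tried kept. It was 1.29-fold above Zab in Zab+MYC cells (adjusted p = 1.35e-21 by limma) on every scaling, and 1.24-fold above MYC in Zab+MYC cells (adjusted p = 2.36e-17 by limma) except on the deposited scale, where the log2 difference was -0.02.

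PGK1, the X-linked kinase of the first ATP-yielding step (chrX:77359745-77384792, plus strand), stood at 1084 and 1222 CPM in the Zab+MYC libraries, 1382 and 1441 with MYC, 826 and 801 with Zab and 1072 and 1063 in WT. It was 1.32-fold above WT in MYC cells (adjusted p = 7.14e-10 by limma) and 1.31-fold below WT in Zab cells (adjusted p = 9.63e-09 by limma). PGAM1, the mutase that follows (chr10:99185948-99193201, plus strand), stood at 77.4 and 80.8 CPM in the Zab+MYC libraries, 74.7 and 81.7 with MYC, 41.6 and 40.4 with Zab and 69.4 and 82.6 in WT. The Zab libraries stood apart and the other 6 overlapped: PGAM1 was 1.81-fold below WT in Zab cells (log2 -0.85 ± 0.181 SE, adjusted p = 0.000151 by limma) and 1.89-fold above Zab in Zab+MYC cells (adjusted p = 4.99e-05 by limma).

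The 3 enolases parted. ENO1, the general enolase (chr1:8921059-8938745, minus strand), stood at 7557 and 7787 CPM in the Zab+MYC libraries, 7946 and 7958 with MYC, 5529 and 5519 with Zab and 5549 and 5538 in WT. Both groups with MYC lay above both groups without it, by 1.43-fold in MYC against WT (log2 0.52 ± 0.0239 SE, adjusted p = 4.89e-31 by limma) and by 1.39-fold in Zab+MYC against Zab (adjusted p = 1.11e-27 by limma).

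ENO2, known as neuron-specific enolase (chr12:7023744-7032860, plus strand), stood at 41.9 and 31.2 CPM in the Zab+MYC libraries, 15.9 and 29.3 with MYC, 59.5 and 58.1 with Zab and 106 and 105 in WT. The 4 groups did not overlap, in the order MYC, Zab+MYC, Zab, WT from low to high. ENO2 was 4.54-fold below WT in MYC cells (log2 -2.18 ± 0.224 SE, adjusted p = 1.30e-13 by limma) and 1.77-fold below WT in Zab cells (adjusted p = 0.00361 by limma, lost with DESeq2). In Zab+MYC against Zab it was 1.60-fold lower (adjusted p = 0.0181 by limma), a call that ended on the deposited scale, with no filter, with DESeq2, and without either Zab library or Zab+MYC replicate 2. ENO3, the muscle enolase (chr17:4853847-4860424, plus strand), stood at 27.3 and 38.3 CPM in the Zab+MYC libraries, 24.3 and 23.0 with MYC, 76.0 and 90.0 with Zab and 107 and 84.2 in WT. Both groups with MYC lay far below the others, 3.78-fold in MYC against WT (log2 -1.92 ± 0.212 SE, adjusted p = 2.18e-12 by limma) and 2.47-fold in Zab+MYC against Zab (adjusted p = 1.04e-06 by limma).

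PKM, the pyruvate kinase whose splice forms are not separated in these values (chr15:72491370-72523965, minus strand), stood at 3378 and 3233 CPM in the Zab+MYC libraries, 2908 and 2836 with MYC, 3308 and 3196 with Zab and 4191 and 4106 in WT. WT was highest, MYC lowest, and Zab+MYC overlapped Zab. PKM was 1.44-fold below WT in MYC cells (log2 -0.53 ± 0.0323 SE, adjusted p = 3.39e-24 by limma) and 1.28-fold below WT in Zab cells (adjusted p = 9.84e-15 by limma). In Zab+MYC against Zab the log2 difference was 0.02 (adjusted p = 0.634 by limma), and against MYC it was 0.20 (adjusted p = 1.05e-06 by limma), except on the deposited scale, where it was -0.13. ALDOC, the brain aldolase, was too low to test, at 10 tags in the Zab+MYC libraries, 4 with MYC, 9 with Zab and 11 in WT.

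**Figure D2:**
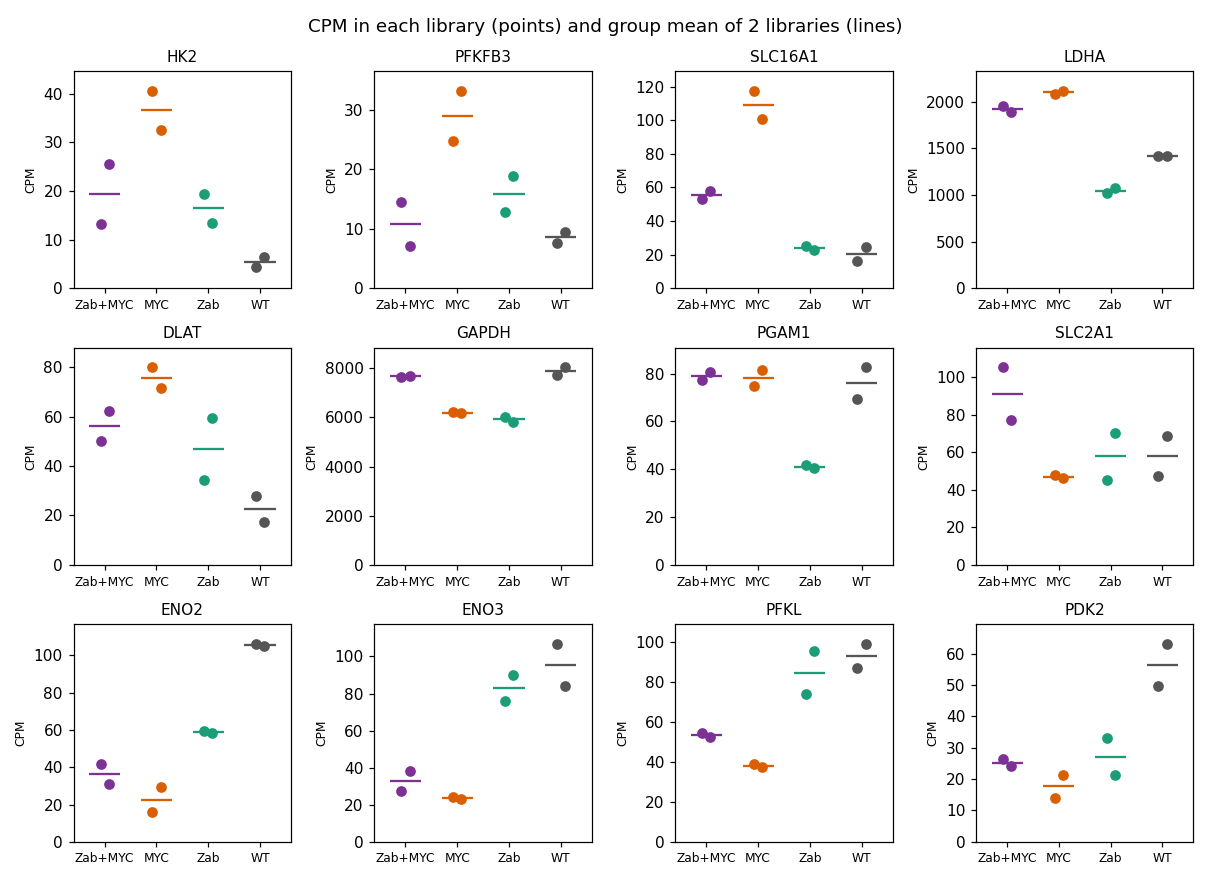
CPM of 12 members in each library (points) with the mean of 2 libraries (lines), for Zab+MYC, MYC, Zab and WT; axes start at 0. HK2, PFKFB3, SLC16A1 and DLAT are highest in MYC, ENO2, ENO3 and PFKL are higher in the groups without MYC, PDK2 is highest in WT, and PGAM1 is low in Zab alone.

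Lactate dehydrogenase and lactate transport. All 3 members tested in this step were higher with MYC in both backgrounds. The main fit called 27.8% of all genes higher in MYC against WT and 14.3% in Zab+MYC against Zab. LDHA, the form that favours lactate (chr11:18416110-18429972, plus strand), stood at 1950 and 1894 CPM in the Zab+MYC libraries, 2085 and 2120 with MYC, 1017 and 1072 with Zab and 1421 and 1417 in WT. The groups did not overlap, and Zab was lowest. LDHA was 1.48-fold above WT in MYC cells (log2 0.57 ± 0.0440 SE, adjusted p = 7.17e-19 by limma), 1.84-fold above Zab in Zab+MYC cells (log2 0.88 ± 0.0440 SE, adjusted p = 6.89e-28 by limma) and 1.36-fold below WT in Zab cells (adjusted p = 2.58e-13 by limma).

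LDHB, the heart form (chr12:21788276-21810728, minus strand), stood at 1589 and 1547 CPM in the Zab+MYC libraries, 2106 and 2039 with MYC, 1166 and 1270 with Zab and 1247 and 1205 in WT. Zab overlapped WT, and both groups with MYC lay above them. LDHB was 1.69-fold above WT in MYC cells (log2 0.76 ± 0.0460 SE, adjusted p = 3.17e-24 by limma) and 1.29-fold above Zab in Zab+MYC cells (adjusted p = 1.08e-09 by limma).

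SLC16A1, a plasma membrane carrier of lactate and pyruvate (chr1:113454470-113498818, minus strand), stood at 53.0 and 58.1 CPM in the Zab+MYC libraries, 118 and 101 with MYC, 25.1 and 22.6 with Zab and 16.4 and 24.4 in WT. MYC was highest, Zab+MYC lay between, and Zab overlapped WT. SLC16A1 was 5.03-fold above WT in MYC cells (log2 2.33 ± 0.229 SE, adjusted p = 2.39e-14 by limma), 2.23-fold above Zab in Zab+MYC cells (log2 1.15 ± 0.229 SE, adjusted p = 5.29e-05 by limma) and 1.93-fold below MYC in Zab+MYC cells (adjusted p = 0.00136 by limma). SLC16A3, the export carrier of highly glycolytic cells, was nearly unread, at 1 tag in the Zab+MYC libraries, 8 with MYC, 2 with Zab and 1 in WT. The ratio of MYC to WT tags for SLC16A3 was 5.96, with a 95% exact counting interval from 0.799 to 264.

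Pyruvate dehydrogenase and its kinases. DLAT, the acetyltransferase core of the complex (chr11:111896132-111935128, plus strand), stood at 50.1 and 62.4 CPM in the Zab+MYC libraries, 79.9 and 71.4 with MYC, 34.4 and 59.4 with Zab and 27.8 and 17.5 in WT. The WT libraries were lowest, and Zab+MYC overlapped Zab. DLAT was 3.22-fold above WT in MYC cells (log2 1.69 ± 0.231 SE, adjusted p = 2.34e-09 by limma) and 1.96-fold above WT in Zab cells (adjusted p = 0.000761 by limma), where the call ended on the deposited scale and without Zab replicate 2 or WT replicate 2. PDHA1, a subunit of the dehydrogenase itself, averaged 57.9 ± 0.694 CPM in the Zab+MYC libraries, 87.1 ± 0.346 with MYC, 45.4 ± 7.88 with Zab and 56.2 ± 14.3 in WT (SD, n = 2 each), and was 1.56-fold above WT in MYC cells (adjusted p = 0.00395 by limma, lost without WT replicate 2). PDHB, its partner, averaged 95.7 ± 8.01 CPM in the Zab+MYC libraries, 92.3 ± 5.5 with MYC, 72.7 ± 4.46 with Zab and 84.3 ± 8.35 in WT, and limma called it in none of the 5 comparisons.

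Of the kinases that switch the complex off, PDK2 and PDK3 could be tested, and both were lower in MYC against WT. PDK2 (chr17:48172715-48189516, plus strand) stood at 26.3 and 24.1 CPM in the Zab+MYC libraries, 14.0 and 21.4 with MYC, 33.0 and 21.4 with Zab and 49.8 and 63.0 in WT. WT was highest and the other 3 groups lay close together. PDK2 was 3.0-fold below WT in MYC cells (log2 -1.58 ± 0.275 SE, adjusted p = 9.44e-07 by limma) and 2.03-fold below WT in Zab cells (adjusted p = 0.00323 by limma, lost with DESeq2 and without Zab replicate 2 or WT replicate 2). PDK3 (chrX:24483403-24568583, plus strand) stood at 10.7 and 14.2 CPM in the Zab+MYC libraries, 12.1 and 5.55 with MYC, 28.7 and 17.8 with Zab and 30.9 and 33.9 in WT, and was 3.33-fold below WT in MYC cells (log2 -1.73 ± 0.343 SE, adjusted p = 1.22e-05 by limma). In Zab+MYC against Zab none of the 5 members tested in this step was called by limma in the main fit (2 at an unadjusted p under 0.05), edgeR or DESeq2. The main fit called 26.8% of all genes in this comparison. By limma, PDK2 had a log2 difference of -0.076 (adjusted p = 0.874), PDK3 of -0.78 (adjusted p = 0.0817) and PDHB of 0.39 (adjusted p = 0.0658). Across the alternatives PDHA1 and PDHB stayed uncalled in 18 of 19 and PDK3 in 19 of 20, and they were called in the remainder.

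PDK1 and PDK4 were too low for the filter and went in opposite directions. PDK1, a kinase known as a target of the hypoxia factor HIF1A, had 12 tags in the Zab+MYC libraries, 30 with MYC, 8 with Zab and 6 in WT, a MYC to WT ratio of 3.72 in CPM with a 95% exact counting interval from 1.53 to 10.9. PDK4, a kinase induced by fasting in many tissues, had 2 tags in the Zab+MYC libraries, 0 with MYC, 2 with Zab and 9 in WT. Against a floor of 3 tags over the group, it was at least 4.03-fold below WT in MYC cells with the WT tags taken as counted, and the 95% exact counting interval, which also covers the error of the WT tags, starts at 2.65-fold lower. With no filter, limma called both in MYC against WT (adjusted p = 0.0113 for PDK1 and 0.00271 for PDK4), and these intervals and floors cover counting error only.

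Pentose phosphate enzymes. These members moved least, and none was 2-fold different in any comparison. TKT, the transketolase of the non-oxidative branch (chr3:53258728-53290038, minus strand), stood at 359 and 403 CPM in the Zab+MYC libraries, 473 and 474 with MYC, 303 and 269 with Zab and 352 and 385 in WT. It was 1.28-fold above WT in MYC cells (adjusted p = 0.000171 by limma), 1.33-fold above Zab in Zab+MYC cells (adjusted p = 9.48e-05 by limma) and 1.29-fold below WT in Zab cells (adjusted p = 0.000563 by limma, lost without Zab replicate 2). TALDO1, the transaldolase of the same branch, averaged 97.1 ± 10 CPM in the Zab+MYC libraries, 92.3 ± 4.89 with MYC, 111 ± 15.7 with Zab and 126 ± 4.86 in WT (SD, n = 2 each), and was 1.36-fold below WT in MYC cells (adjusted p = 0.00831 by limma, lost with DESeq2 and without MYC replicate 2 or WT replicate 2). PGD, a dehydrogenase of the oxidative branch, averaged 226 ± 13.3 CPM in the Zab+MYC libraries, 194 ± 20.5 with MYC, 188 ± 41.1 with Zab and 199 ± 0.324 in WT, and limma called it in none of the 5 comparisons. It was called as higher in Zab+MYC against Zab without Zab replicate 2, on the deposited scale and with the replicate number as a block.

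**Figure D3:**
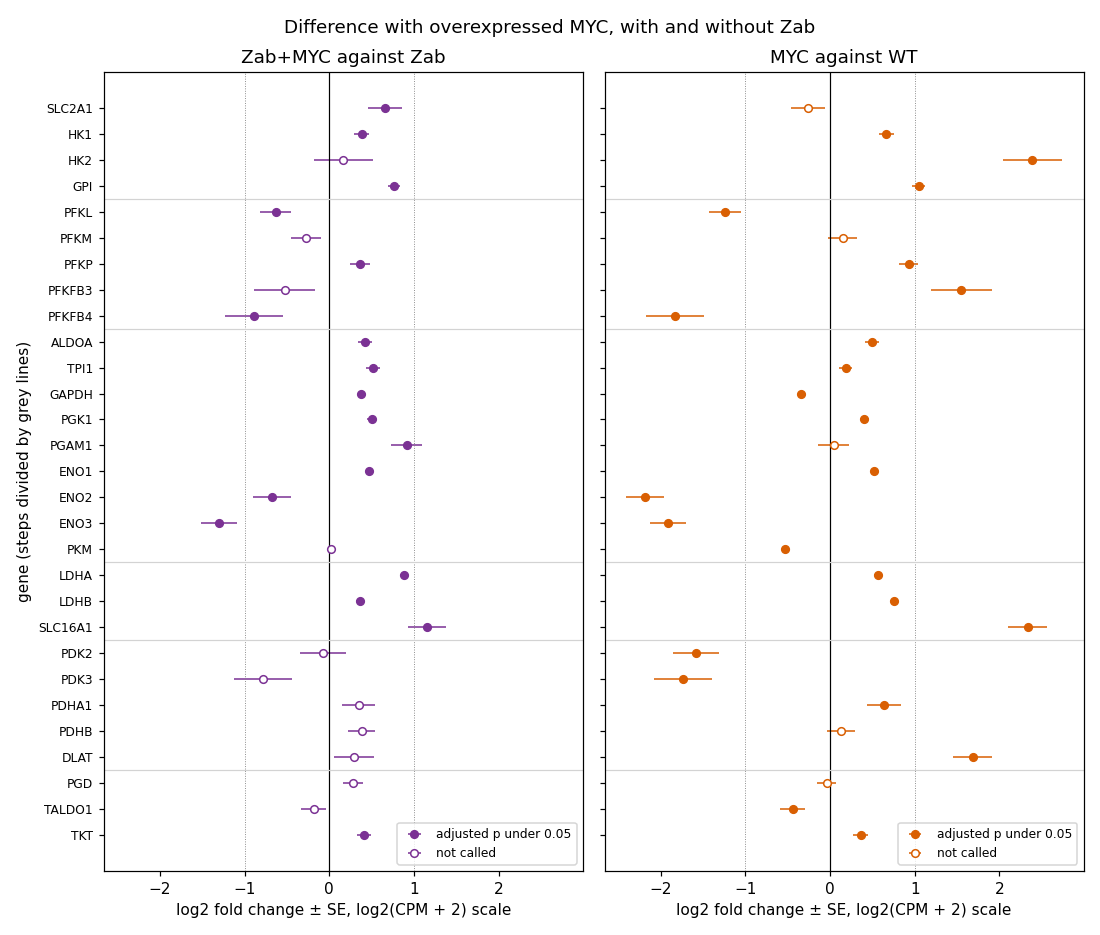
log2 difference with its standard error for each of the 29 members tested, in MYC against WT and in Zab+MYC against Zab; filled points have an adjusted p under 0.05. HK2 and PFKFB3 lie far right of 0 only in MYC against WT, while LDHA, GAPDH and PGAM1 lie further right in Zab+MYC against Zab.

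The difference that MYC made in Zab cells was set beside the one it made in WT cells, which rest on different libraries. Over the 29 members, Pearson's r between the 2 log2 differences was 0.67 and Spearman's rho 0.51, with a slope of 0.33; over all 9673 genes they were 0.67, 0.67 and 0.37. These are correlations across genes, which are not independent replicates. The sign was the same for 23 members (79.3%, against 74.9% of all genes). Of the members called, 16 were called in both, which is 66.7% of those called in MYC against WT and 88.9% of those called in Zab+MYC against Zab; over all genes the shares were 38.2% and 83.0%. GAPDH was the member called in both with opposite signs, named after its values were seen.

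The interaction term, the MYC difference in Zab cells minus that in WT cells, was called by limma for 15 members, 8 higher and 7 lower, where 27.9% of all genes were called, 14.6% higher and 13.3% lower. Of these, 6 were at least 2-fold in size, 2 higher and 4 lower, where 14.6% of all genes passed that size, 9.46% higher and 5.17% lower. With library totals the split was 11 and 6, and on the deposited scale 13 and 5. Of all genes, 17.2% were called higher and 10.75% lower with library totals, and 21.3% and 8.57% on the deposited scale. The MYC difference was smaller or turned round with Zab for HK2 (interaction log2 -2.22 ± 0.491 SE, adjusted p = 0.000263), PFKFB3 (-2.07 ± 0.509, adjusted p = 0.00102), DLAT (-1.39 ± 0.327, adjusted p = 0.000573) and SLC16A1 (-1.18 ± 0.324, adjusted p = 0.00355), and to a lesser degree for PFKP, LDHB and GPI. It was also smaller for 2 members that MYC lowered, ENO2 (1.51 ± 0.317, adjusted p = 0.000125) and PDK2 (1.51 ± 0.389, adjusted p = 0.00178). The opposite held for SLC2A1, called with Zab and not without it (0.92 ± 0.285, adjusted p = 0.00996). The MYC difference was also larger with Zab for PGAM1 (0.87 ± 0.256, adjusted p = 0.00644), TPI1 and LDHA (0.31 ± 0.0622, adjusted p = 5.35e-05). GAPDH (0.72 ± 0.0342, adjusted p = 3.95e-29) and PKM (0.55 ± 0.0457, adjusted p = 8.44e-17) were lower with MYC in WT cells and not in Zab cells. With DESeq2, 7 of these interactions were called, and those of PFKFB3, SLC16A1, PDK2, PGAM1, SLC2A1, PFKP, GPI and TPI1 were not. MYC transcript differed by 14.9-fold in MYC against WT and by 3.32-fold in Zab+MYC against Zab, and the part of that gap in these interactions was not tested.

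Summed over all 34 members, the share of exon tags was 2.65% ± 0.0129 in Zab+MYC, 2.54% ± 0.0103 in MYC, 2.08% ± 0.0139 in Zab and 2.54% ± 0.00786 in WT (SD, n = 2 each). Most of it came from GAPDH, ENO1 and PKM, with 1.85% in the Zab+MYC libraries, 1.62% with MYC, 1.49% with Zab and 1.83% in WT. The other 31 members together held 0.806% in the Zab+MYC libraries, 0.915% with MYC, 0.591% with Zab and 0.712% in WT. The share of the whole set was thus alike in MYC and WT, while the share without these 3 genes was higher in MYC and lower in Zab than in WT.

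Ratios within a library, set per transcript length, compare related genes without the scaling between libraries. They do depend on the kept transcript, which changed between libraries in each pair given here. For PFKFB4 to PFKFB3, the difference in log2 ratio in Zab+MYC against Zab was -0.86 per length and -0.38 on tags only. In MYC against WT it was -3.63 per length and -3.69 on tags only. The log2 ratio of PFKP to PFKL was 2.13 and 2.03 in the Zab+MYC libraries, 3.05 and 3.06 with MYC, 1.12 and 1.1 with Zab and 1.12 and 0.62 in WT. PFKP thus exceeded PFKL in all libraries, and most in MYC, where the ratio was 4.55-fold that of WT. The log2 ratio of PFKFB4 to PFKFB3 was 0.21 and -0.34 in the Zab+MYC libraries, -0.95 and -1.85 with MYC, 1.40 and 0.17 with Zab and 2.23 and 2.21 in WT, so that the more abundant of these isozymes was PFKFB3 in MYC and PFKFB4 in WT, a 12.3-fold change of ratio.

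HK2 stayed below HK1 in every library, with a log2 ratio of -5.32 and -4.29 in the Zab+MYC libraries, -3.93 and -4.22 with MYC, -4.48 and -4.91 with Zab and -6.23 and -5.68 in WT. The log2 ratio of ENO3 to ENO1 was -6.82 and -6.54 in the Zab+MYC libraries, -7.23 and -7.28 with MYC, -4.90 and -4.84 with Zab and -4.57 and -4.76 in WT, which put ENO3 6.01-fold lower relative to ENO1 in MYC than in WT. LDHB exceeded LDHA per length in all libraries, at log2 0.29 and 0.26 in the Zab+MYC libraries, 0.56 and 0.49 with MYC, 0.74 and 0.83 with Zab and 0.36 and 0.31 in WT, and the ratio was highest in Zab. Groups of 2 against 2 cannot go below p = 0.333 in an exact two-sided permutation test, and no other test of these ratios was run.

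**Figure D4:**
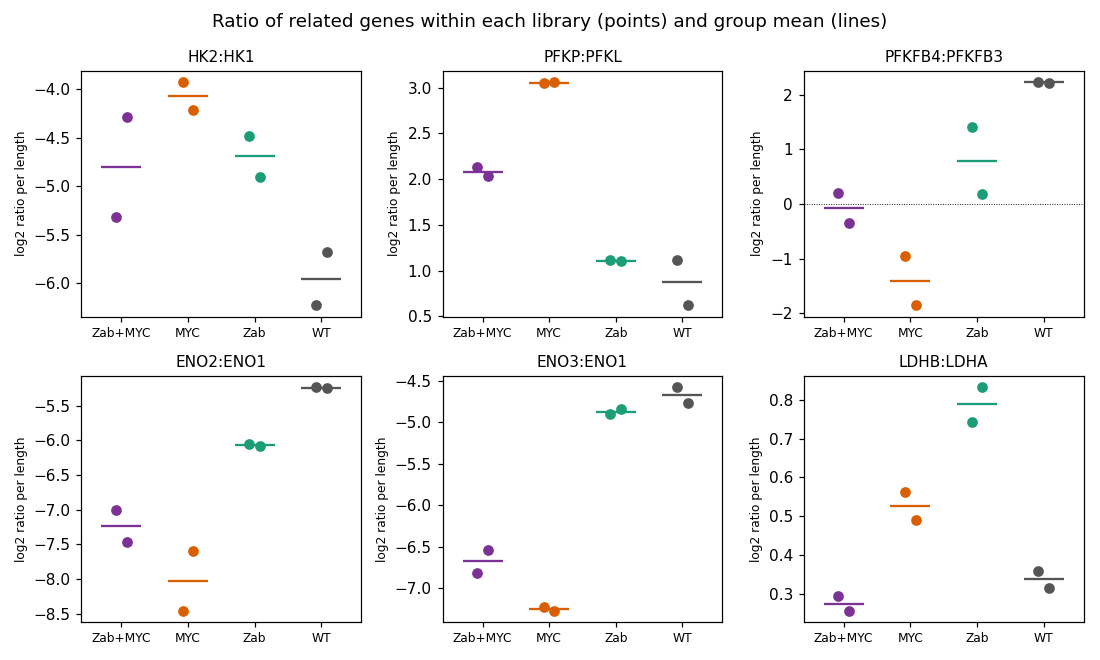
log2 ratio of the levels per transcript length of 6 pairs of related genes in each library (points) with the mean of 2 libraries (lines), for Zab+MYC, MYC, Zab and WT; dotted lines mark equal levels. The ratio of PFKFB4 to PFKFB3 is above 0 in both WT libraries and below 0 in both MYC libraries, and ENO2 and ENO3 fall furthest below ENO1 in MYC.

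Of other genes of these pathways, 74 were in the tables and 44 were tested. In MYC against WT 10 of them were higher and 15 lower (56.8% called, against 58.2% of all genes). In Zab+MYC against Zab 4 were higher and 5 lower, and in Zab against WT 3 were higher and 6 lower (20.5% called in each, against 26.8% and 24.4% of all genes). Between Zab+MYC and MYC the 5 that limma called were higher in Zab+MYC (11.4%, against 20% of all genes), in Zab+MYC against WT 8 were higher and 11 lower (43.2%, against 42.3%), and the interaction was called higher for 10 and lower for 1 (25%, against 27.9%). The other glucose transporters called in MYC against WT were all lower: SLC2A3 by 5.98-fold, SLC2A6 by 2.34-fold, SLC2A10 by 7.22-fold and SLC2A12 by 9.18-fold (adjusted p = 5.65e-10, 7.77e-05, 8.02e-07 and 2.14e-09 by limma), of which SLC2A10 and SLC2A12 held few or no tags in MYC, and their folds depend on the pseudocount and tool, down to 3.77-fold and 5.26-fold with a pseudocount of 5 CPM and up to 37.1-fold and 21.3-fold with DESeq2. SLC2A3 stood at 11.7 and 14.2 CPM in the Zab+MYC libraries, 6.54 and 3.97 with MYC, 22.2 and 21.4 with Zab and 41.6 and 39.7 in WT.

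Among other pentose phosphate genes, H6PD and PGLS of the oxidative branch were lower in MYC cells against WT, and 3 genes that make or activate ribose phosphate were higher. H6PD, the first oxidative step in the endoplasmic reticulum, was 5.60-fold lower, and PGLS, the lactonase, 2.71-fold lower (adjusted p = 9.74e-10 and 2.58e-08 by limma). RPIA, the ribose phosphate isomerase, was 3.17-fold higher, and PRPS1 and PRPS2, which activate ribose phosphate for nucleotide synthesis, were 2.59-fold and 2.20-fold higher (adjusted p = 9.22e-06, 2.96e-07 and 0.000490 by limma for these 3). H6PD was also 3.03-fold below Zab in Zab+MYC cells, and RPIA 2.31-fold above it, a call that ended with DESeq2, without Zab+MYC replicate 1, and without Zab replicate 1, where the log2 difference was 0.45.

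Around pyruvate, 8 of the 11 other genes tested were called in MYC against WT, 4 higher and 4 lower. Of all genes 58.2% were called in MYC against WT, 27.8% higher and 30.4% lower. PC, the carboxylase that feeds pyruvate into the citric acid cycle, was 3.14-fold lower. Of the phosphatases that switch pyruvate dehydrogenase on, PDP1 was 2.11-fold lower and PDP2 2.39-fold higher, at 77.9 and 73.7 CPM in the Zab+MYC libraries, 101 and 84.1 with MYC, 34.4 and 34.3 with Zab and 36.6 and 38.1 in WT. SLC16A7, another monocarboxylate carrier, was 2.31-fold higher, a call that ended with DESeq2 and without MYC replicate 1 or WT replicate 1 (adjusted p = 5.74e-05 by limma for PC, 7.89e-05 for PDP1, 9.10e-08 for PDP2 and 0.0122 for SLC16A7). MPC2, a subunit of the mitochondrial pyruvate carrier, was 2.0-fold below WT in Zab+MYC cells (adjusted p = 0.0108 by limma, lost with DESeq2 and without Zab+MYC replicate 2 or WT replicate 1). PGM1, which links glucose phosphate to glycogen, was 2.87-fold lower in MYC cells against WT (adjusted p = 3.95e-10 by limma). UGP2, which makes the sugar donor of glycogen synthesis, had an interaction of log2 1.05 ± 0.314 (adjusted p = 0.00736 by limma, lost with DESeq2 and without WT replicate 2). TXNIP, a glucose-responsive brake on glucose uptake, was 3.83-fold higher in MYC cells against WT (adjusted p = 1.41e-07 by limma), at 32.6 and 33.3 CPM in the Zab+MYC libraries, 36.4 and 44.0 with MYC, 15.1 and 11.6 with Zab and 7.57 and 10.6 in WT. The MYC libraries were highest and the WT libraries lowest for TXNIP.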

How the data were processed

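RNA-seq libraries were made from Trizol-extracted RNA, per the labels' protocols. The submitters' processing notes name HOMER 4.11.1, STAR and Trim Galore 0.6.6, and list the builds hg19 and dm6 without a role. The deposited values are an exon signal per gene, counted by HOMER on hg19 RefSeq coding transcripts with 1 transcript kept per symbol, per the file headers. All values were whole multiples of 1 step per library (tolerance 0.1 step). A tag was taken as 2 steps, an assumption that sets tag numbers, and with them the filter, the counting intervals, the comparison with sampling noise and the edgeR and DESeq2 calls. How the authors scaled the deposited signal is unstated in these sources. The length that the authors' tables give for the kept transcript, another column of those files, was used for levels per length. The kept transcript was not the same in all libraries for 50.6% of genes and 19 of the 29 members tested. Use of strand in counting is unstated too. GAPDH, ENO1, PKM, LDHA, LDHB, PGAM1, TPI1, PGK1 and ALDOA have processed pseudogenes that can share reads with them, so their values are uncertain to that degree.

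Signal was divided back to tags. Genes passing filterByExpr (9673) were scaled by TMM and tested as log2(CPM + 2) with limma's trend over all 8 libraries, group means and 4 residual degrees of freedom, two-sided, with Benjamini-Hochberg adjustment over all genes. Folds are on that log2 scale and understate changes of low genes. No molecular identifiers were counted, so intervals and floors cover counting error only. Alternatives were RLE scaling, library totals, the deposited scale, a filter of 5 CPM in 2 libraries or none, pseudocounts of 1 and 5 CPM, edgeR and DESeq2 on recovered tags rounded to whole numbers, replicate number as a block, genes with 1 kept transcript throughout, 4 libraries alone, and each library left out. Summing a group's libraries was added after the data were seen. limma, edgeR and DESeq2 were tested on simulated data.

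Members and gene lists were chosen with earlier results of these data known. Each member called at least 2-fold or with a called interaction, and the 10 most abundant, has all libraries printed, and other pathway genes are named where called at least 2-fold in a comparison or the interaction. Some results are not reported here. Software was limma 3.58.1, DESeq2 1.42.0 and edgeR 4.0.16 in R 4.3.3, with scipy 1.17.1, pandas 2.3.3, numpy 2.4.6 and matplotlib 3.10.9 in Python 3.11.15.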

Additional observations from a re-analysis of the deposited data

Results flagged for a closer look

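For 15 members the difference made by MYC was not the same with and without Zab, by the interaction term of the limma fit (log2, the difference in Zab+MYC against Zab minus that in MYC against WT). It was below 0 for HK2 (-2.22), PFKFB3 (-2.07), DLAT (-1.39), SLC16A1 (-1.18), PFKP (-0.57), LDHB (-0.39) and GPI (-0.28). It was above 0 for ENO2 (1.51), PDK2 (1.51), SLC2A1 (0.92), PGAM1 (0.87), GAPDH (0.72), PKM (0.55), TPI1 (0.33) and LDHA (0.31). The call for SLC2A1 ended without Zab replicate 1, Zab+MYC replicate 1 or WT replicate 2 and with no filter, for GPI without MYC replicate 2 or WT replicate 1, with library totals and on the deposited scale, for PFKP without Zab+MYC replicate 2 and on the deposited scale, and for PGAM1 without MYC replicate 1. For TPI1 it ended without MYC replicate 1, MYC replicate 2, Zab replicate 2, Zab+MYC replicate 1 or WT replicate 2, with no filter and with the filter of 5 CPM. DESeq2 also did not call these 5, nor PFKFB3, SLC16A1 and PDK2. MYC transcript was lower in Zab+MYC than in MYC libraries, while the MYC difference was smaller with Zab for some of these members and larger or turned round for others. The part of the MYC transcript level in these terms was not tested.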

How the results depend on the processing

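Of 174 results of a member in a comparison, 101 were called, 62 of them under every alternative and 39 not under at least 1. Leaving out each library in turn moved the members called to 22 to 25 (MYC against WT), 9 to 12 (Zab against WT), 15 to 18 in Zab+MYC against Zab, 11 to 17 in Zab+MYC against MYC, 16 to 20 in Zab+MYC against WT and 13 to 16 in the interaction. Restricting the fit to genes with 1 kept transcript throughout, which leaves 10 of the 29 members, called 9, 4, 7, 6 and 8 in these comparisons and 5 in the interaction. DESeq2 called 7 interactions, and the cause was not tested. The deposited scale called 25 members and 51.9% of all genes in Zab against WT. It moved the median of all genes, in the same order of comparisons, to -0.09, -0.51, 0.14, -0.31, -0.37 and 0.22, and library totals moved it to -0.16 in MYC against WT and to 0.11 in the interaction. Among results called in the main fit or on the deposited scale, signs turned on the deposited scale for HK1 (-0.37) and PFKP (-0.51) in Zab against WT, for ALDOA (-0.11), TPI1 (-0.37), PGK1 (-0.28), LDHB (-0.032) and TKT (-0.34) in Zab+MYC against WT, for GAPDH (-0.023) and PKM (-0.13) in Zab+MYC against MYC, and for ENO1 in the interaction (0.17), as that scale's shift of all genes would give. Sign changes of results called on neither scale are not listed. With the libraries of each group summed into 1 sample, which leaves no test, 11, 3, 2, 1 and 8 members passed 2-fold in the 5 comparisons. Below about 10 tags a group, as for ALDOC and PDK4, depth limits what can be seen.

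No pairing by replicate number was seen: deviations of same-numbered libraries correlated at -0.0113 to 0.021 over 6897 genes. Since the libraries of a group differed by about sampling noise, these correlations could be near 0 with or without pairing and cannot decide it. With the replicate number as a block, 24, 12, 19, 15 and 19 members were called in the 5 comparisons and 15 in the interaction.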
